A study of Homo sapiens with 24 samples.

Results

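Integrins and the basement-membrane proteins that they bind were followed through the knockdown of MYBL2, the knockdown of FOXM1, the knockdown of both and treatment with FDI-6 in A549 cells. The genes were the protein-coding genes whose symbols name an integrin alpha chain, an integrin beta chain 1 to 8, a laminin chain or a collagen IV chain, which gave 44 genes of the 58721 identifiers in the count files and of 19831 protein-coding genes. Of these, 18 encode alpha chains, 8 beta chains, 12 laminin chains and 6 collagen IV chains. The rule uses gene symbols alone.

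A549 is an established human lung adenocarcinoma cell line, and RNA-seq was performed on 24 libraries made by polyA capture and read as 150 bp pairs. In the single-knockdown experiment, 4 siMYBL2 and 4 siFOXM1 libraries had the same 4 siControl libraries, transfected with scrambled siRNA. In the double-knockdown experiment, 3 siBoth libraries, which received the siRNAs for MYBL2 and for FOXM1, had 3 siControl_Both libraries of their own, and in the compound experiment 3 FDI6 libraries had 3 control_FDI6 libraries. FDI-6 is a small molecule described by the study as an inhibitor of FOXM1 binding to DNA. The siRNAs were used at 25 nM and FDI-6 at 20 µM for 24 h. The time between transfection and harvest is not given in the sources used here, and the labels call the control_FDI6 libraries only a control. The study's list of supplementary material names DMSO, a solvent, for that comparison, while a figure legend of the study calls the control cells untreated. All groups derive from the same cell line, so no other genotype was tested.

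Integrins are receptors of 1 alpha and 1 beta chain that hold cells to the extracellular matrix and signal through focal adhesions. Laminins are trimers of an alpha, a beta and a gamma chain, collagen IV forms a network beside them, and both build the basement membrane under epithelia. The beta 1 chain pairs with many alpha chains, among them the collagen receptors alpha 1, 2, 10 and 11 and the laminin receptors alpha 3, 6 and 7, while alpha 6 beta 4 anchors epithelial cells in hemidesmosomes by binding laminin. Alpha X (ITGAX, also known as CD11c), alpha M (ITGAM), alpha L and alpha D pair with beta 2 and are known mainly from leukocytes.

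The libraries held between 16487394 and 30140550 read pairs on genes. The share of pairs that did not align was between 1.729% and 3.031% in the single-knockdown and compound experiments and between 7.684% and 10.926% in both groups of the double-knockdown experiment, and its part in any result was not tested. MYBL2 stood at 4.16% of control in siMYBL2 and at 4.91% in siBoth, and FOXM1 at 9.59% in siFOXM1 and at 9.67% in siBoth, as the labels say. FOXM1 was also lower in siMYBL2, at 60.3% of control. With FDI-6, FOXM1 was at 77.5% and MYBL2 at 70% of control. All 10 epithelial and A549 markers of a fixed list were detected in every group. Of 20 leukocyte markers, between 6 and 9 were at 0 in every library of a group, TYROBP and HLA-DRA in all 24 libraries, and PTPRC, which encodes CD45, had at most 6 counts in any library. Of 10 fibroblast and 10 endothelial markers, COL1A1 and EGFL7 took the most reads.

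The levels of the 44 genes spanned several orders of magnitude. Values are given in CPM, read counts relative to library sizes scaled by the trimmed mean of M values (TMM). Levels are compared between genes only after division by the kilobases of exon, taken over all annotated exons of a gene. In siControl, ITGB1 had the highest level, 211.7 ± 9.48 CPM per kb (SD, n = 4), followed by ITGB5 (113.5 ± 27.8) and ITGA3 (87.9 ± 18.4), and the difference between ITGB5 and ITGA3 is within their spread. LAMC1 (73.2 ± 2.85 CPM per kb) and LAMA5 (59.0 ± 5.5) led the laminins, followed by LAMB1 (33.0 ± 3.59), so the chains of laminin-511 were the 3 highest of their family. ITGB4 stood sixth of all genes, at 44.3 ± 14.6 CPM per kb, and COL4A6 led the collagen IV chains at 26.8 ± 3.15. That lead depends on the exon length and the experiment. Before division by length, COL4A2 had 327.8 CPM in siControl and COL4A6 249. In control_FDI6, COL4A2 stood above COL4A6 per kb, at 9.44 against 7.81. The leukocyte integrins were low: ITGAX reached 0.42 ± 0.0651 CPM per kb, ITGAM 0.463 ± 0.234 and ITGB2 0.543 ± 0.364. ITGA8 had 6 counts and LAMA1 106 counts over the 24 libraries.

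**Figure D1:**
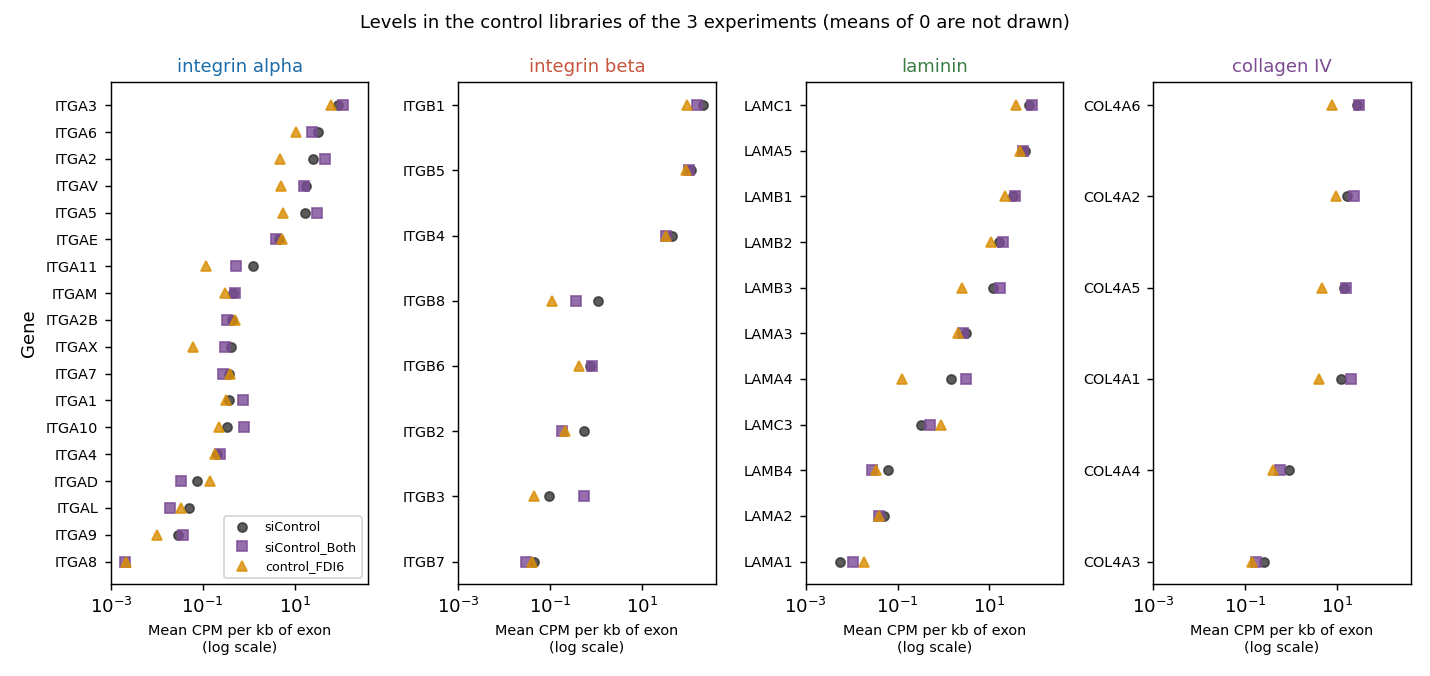
Mean CPM per kb of exon (horizontal, log scale) of each gene in the control libraries of the 3 experiments, by family, with circles for siControl, squares for siControl_Both and triangles for control_FDI6. ITGB1 is the highest in siControl at 211.7 and the leukocyte integrin ITGAX lies at 0.42; the control groups were scaled separately, so distances between symbols of a gene are not tested.

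A filter on low counts left 39 of the 44 genes in the siMYBL2 comparison, 37 in each of the siFOXM1 and siBoth comparisons and 36 in that of FDI6. A gene was called, and is written as having risen or fallen, where its Benjamini-Hochberg adjusted p over all genes tested was under 0.05 in edgeR's quasi-likelihood test and its fold change was over 1.5. In siMYBL2, 5 of the 39 genes rose and 2 fell, while of all genes tested 4.38% rose and 3.52% fell. In siBoth, 3 of 37 rose and 2 fell (2.8% and 3.64% of all genes tested), and in FDI6, 8 of 36 rose and 1 fell (8% and 5.77% of all genes tested). In siFOXM1 none was called by edgeR or DESeq2, 4 genes had an unadjusted p under 0.05 in each tool, and of all genes tested 0.0755% rose and 0.591% fell. The median log2 fold change of the tested genes was 0.205 in siMYBL2, 0.004 in siFOXM1, 0.089 in siBoth and 0.262 in FDI6, beside 0.015, 0.003, 0.017 and -0.012 over all genes tested. After correction for GC content and exon length these medians were 0.189, 0.028, 0.119 and 0.097, beside 0.012, 0.012, 0.029 and -0.02. siMYBL2 and siFOXM1 share their control libraries, so their fold changes are not independent. In bulk RNA, fewer cells that express a gene and less RNA of it per cell cannot be told apart.

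**Figure D2:**
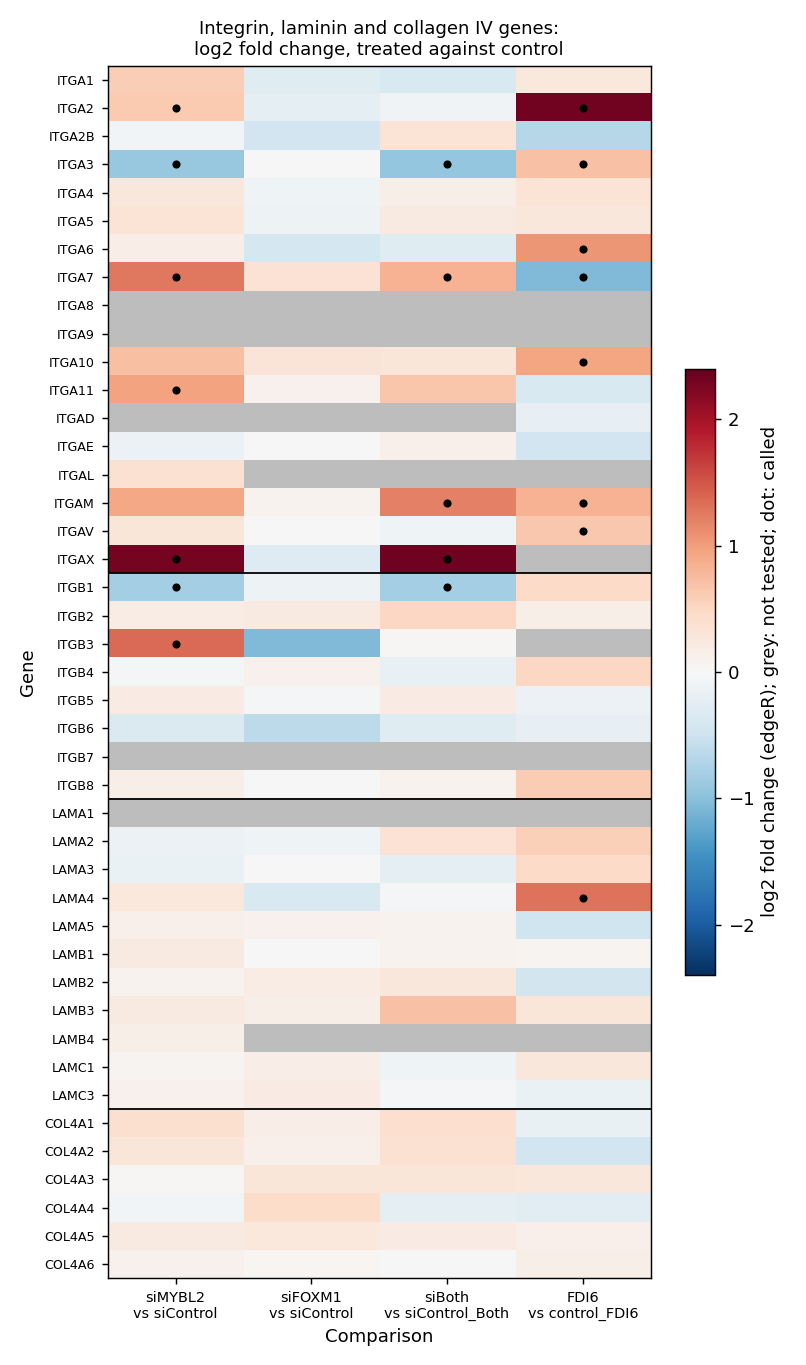
Heat map of the log2 fold change (colour) of the genes (rows, by family) in the 4 comparisons (columns), with a dot where a gene was called and grey where it was not tested. ITGAX is the strongest rise in siMYBL2 (2.30) and siBoth (2.33) and ITGA2 in FDI6 (2.32), and no collagen IV gene carries a dot.

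ITGAX rose in both experiments in which MYBL2 was knocked down. The gene (ENSG00000140678, chr16:31355134-31382999, plus strand) lies in a cluster with ITGAM (chr16:31259967-31332892) and ITGAD (chr16:31393335-31426505), and no other gene overlaps its exons. The siMYBL2 libraries had 395, 359, 386 and 416 counts of ITGAX and the siControl libraries 86, 78, 71 and 65. As CPM these were 16.1, 12.3, 15.2 and 15.0 against 3.6, 3.00, 2.52 and 2.77, so every siMYBL2 library lay above every control. ITGAX was higher by 2.30 ± 0.145 (log2, SE; adjusted p = 6.44e-05, edgeR), a 4.93-fold rise. siBoth had 13.4, 10.2 and 8.38 CPM against 2.38, 2.29 and 1.66 in siControl_Both, again without overlap, and a log2 fold change of 2.33 ± 0.232 (adjusted p = 0.00103, edgeR). In siFOXM1, ITGAX was at 3.40, 1.89, 2.58 and 1.61 CPM, which overlaps the controls, and the log2 fold change was -0.31 ± 0.242 (adjusted p = 0.686). The siMYBL2 and siFOXM1 libraries differed by 2.61 ± 0.221 on the log2 scale (adjusted p = 1.20e-04, edgeR). With FDI-6, ITGAX had 17, 8 and 12 counts against 6, 9 and 10 in the control and did not pass the filter on low counts.

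ITGAM encodes alpha M, another chain of the same gene cluster. It rose in siBoth, where 6.999, 7.49 and 5.05 CPM stood against 2.92, 2.93 and 2.57, with a log2 fold change of 1.21 ± 0.199 (adjusted p = 0.00853, edgeR). In siMYBL2, ITGAM had 4.74, 6.75, 6.16 and 2.56 CPM and in siControl 3.39, 3.58, 2.88 and 0.682, so the groups overlap. The log2 fold change in siMYBL2 was 0.93 ± 0.45 (adjusted p = 0.187) and was called when the replicate number entered as a block factor (0.97, adjusted p = 2.97e-04, edgeR). ITGAD had between 1 and 18 counts in any library and was not tested in the knockdowns against their controls. Their partner ITGB2 had log2 fold changes of 0.18 ± 0.561 in siMYBL2 and 0.49 ± 0.295 in siBoth, with adjusted p of 0.86 and 0.304. The summed level of the 20 leukocyte markers was between 16.2 and 19.4 CPM in siMYBL2 against 8.17 to 10.8 in siControl, and between 16.9 and 18.2 CPM in siBoth against 7.37 to 10.2. CD14, which encodes a lipopolysaccharide co-receptor, held most of that sum and rose in both (log2 1.06 ± 0.233 and 1.08 ± 0.24, adjusted p = 0.0146 and 0.0254, edgeR). LAPTM5 rose in siMYBL2 (log2 1.495 ± 0.378, adjusted p = 0.0253) on at most 15 counts a library. CORO1A had 56 to 150 counts a library in siMYBL2 against 23 to 81 in siControl, and 94 to 122 in siBoth against 41 to 88, and was not called. Under the block, 3 of 4 tested leukocyte markers rose in siMYBL2 and 2 of 2 in siBoth, beside 7.68% and 6.62% of all genes tested. PTPRC, SPI1 and TYROBP, which mark leukocytes, had at most 6, 8 and 0 counts in a library of these groups. The part of these markers in the ITGAX and ITGAM results was not tested.

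ITGA3 and ITGB1, the chains of the laminin receptor alpha 3 beta 1, fell together when MYBL2 was knocked down. They had the highest levels per kb of the alpha and of the beta chains. ITGB1 fell from 3217, 3133, 3087 and 2891 CPM in siControl to 1856, 2141, 1253 and 1718 in siMYBL2, a log2 fold change of -0.82 ± 0.142 (adjusted p = 0.00502, edgeR). In siBoth it fell from 2375, 2347 and 2164 CPM to 1318, 1353 and 1260 (log2 -0.81 ± 0.088, adjusted p = 0.00148, edgeR). No library overlapped the control range in either experiment. ITGA3 fell from 971, 1040, 796 and 640 CPM to 482, 640, 384 and 337 in siMYBL2, where the highest treated library, 640.1 CPM, lay just under the lowest control, 640.2 CPM. Its log2 fold change was -0.90 ± 0.214 (adjusted p = 0.0197, edgeR) and was called in 4 of 8 fits that left out 1 library. Without siMYBL2 replicate 1 or 3, or siControl replicate 1 or 2, the adjusted p was between 0.0531 and 0.0588. In siBoth, ITGA3 fell from 1124, 1118 and 1071 CPM to 589, 656 and 492, with no overlap and a log2 fold change of -0.93 ± 0.115 (adjusted p = 0.00261, edgeR). In siFOXM1 the log2 fold changes were -0.02 ± 0.171 for ITGA3 and -0.12 ± 0.068 for ITGB1 (adjusted p = 0.986 and 0.553), and siMYBL2 lay below siFOXM1 by 0.89 ± 0.203 and 0.71 ± 0.144 on the log2 scale (adjusted p = 0.0127 and 0.00739, edgeR).

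**Figure D3:**
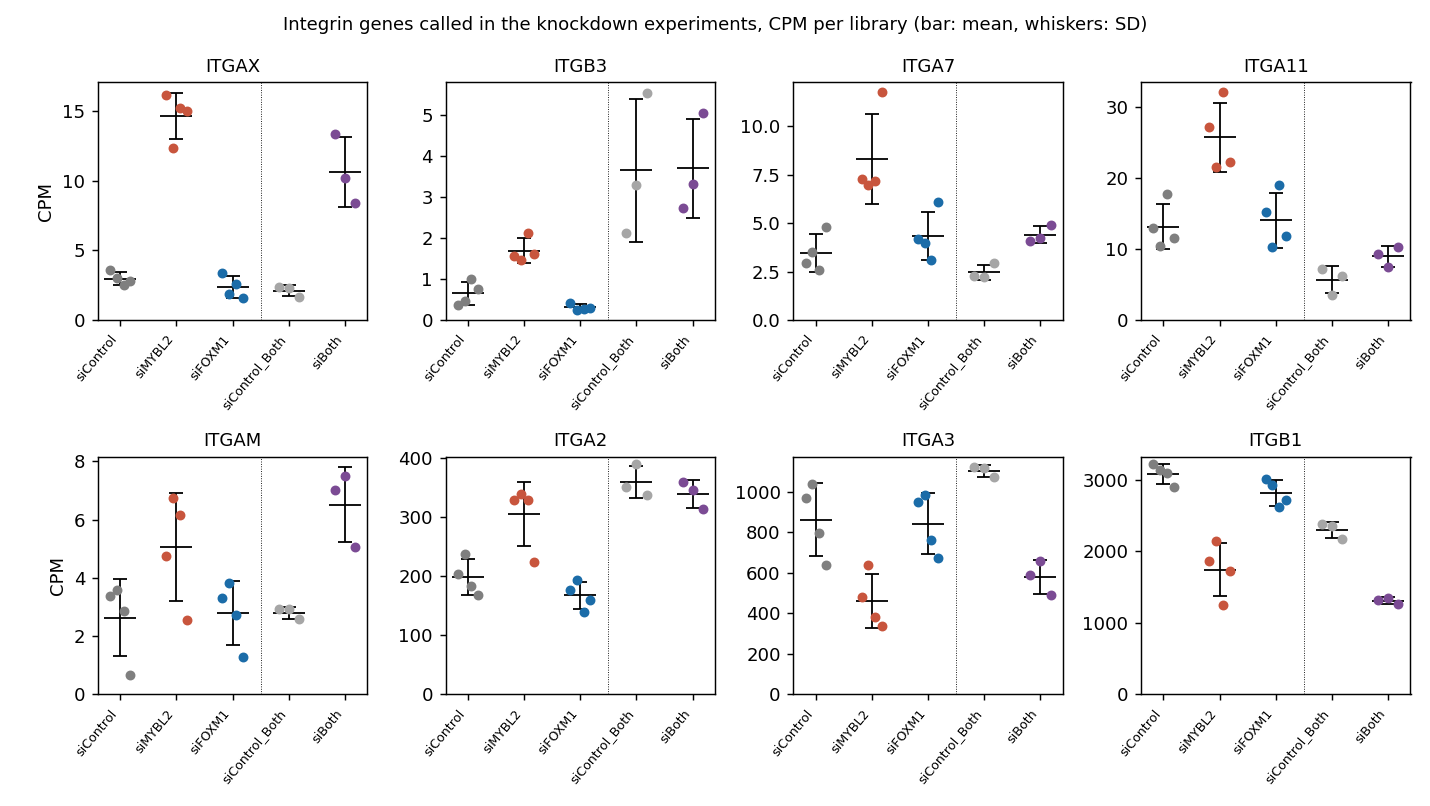
CPM (vertical, from 0) in each library of the 5 knockdown and control groups for 8 integrin genes, with points for libraries, a bar for the mean and whiskers for the SD. The 4 siMYBL2 libraries lie between 12.3 and 16.1 CPM for ITGAX, above all siControl and siFOXM1 libraries, and below them for ITGB1.

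Other receptor chains rose with the knockdown of MYBL2. ITGA7, whose product binds laminin and is known from muscle, rose from 2.93, 3.50, 2.59 and 4.82 CPM to 7.27, 6.96, 7.18 and 11.8 in siMYBL2 (log2 1.26 ± 0.242, adjusted p = 0.00817, edgeR), with no overlap. In siBoth it rose from 2.29, 2.21 and 2.92 CPM to 4.08, 4.24 and 4.92 (log2 0.84 ± 0.194, adjusted p = 0.0294, edgeR), but none of the 6 fits that left out 1 library called it, with adjusted p between 0.0501 and 0.105. ITGA11, which encodes a collagen receptor chain, rose in siMYBL2 from 13.0, 10.4, 17.7 and 11.6 CPM to 27.2, 21.6, 32.1 and 22.2, with no overlap (log2 0.96 ± 0.186, adjusted p = 0.00848, edgeR). In siBoth it had 9.25, 7.41 and 10.3 CPM against 7.24, 3.57 and 6.23, without overlap. The log2 fold change of 0.67 ± 0.259 was not called (adjusted p = 0.13, edgeR). ITGA11 was called there when the replicate number entered the fit (0.69, adjusted p = 0.00205, edgeR) and when the filter on low counts was omitted.

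ITGA2, the alpha chain of the main epithelial collagen receptor, rose in siMYBL2 from 204, 238, 184 and 169 CPM to 329, 339, 329 and 224, so replicate 4 fell within the control range. Its log2 fold change was 0.62 ± 0.15 (adjusted p = 0.0209, edgeR), close to the fold threshold, and it was called in 2 of 8 fits that left out 1 library: the call was lost without siMYBL2 replicate 1, 2 or 3 or siControl replicate 1, 3 or 4, where log2 fold changes ran from 0.54 to 0.63 and adjusted p from 0.0411 to 0.0674. In siBoth, ITGA2 had 360, 346 and 313 CPM against 351, 390 and 338, which overlap (log2 -0.08 ± 0.094, adjusted p = 0.599). The ratio of ITGA2 to ITGA3 per kb was between 0.26 and 0.327 in siControl and between 0.657 and 1.06 in siMYBL2, and between 0.388 and 0.433 in siControl_Both against 0.655 to 0.79 in siBoth. ITGB3, the beta chain that pairs with alpha V and alpha IIb, rose in siMYBL2 from 9, 12, 28 and 18 counts to 38, 43, 54 and 45 (log2 1.37 ± 0.304, adjusted p = 0.0153, edgeR). Its counts are uncertain because 33.2% of the exon sequence is shared with a neighbouring gene on that strand. In siBoth, ITGB3 had 73, 80 and 124 counts against 47, 88 and 127 (log2 0.02 ± 0.364, adjusted p = 0.977).

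Whether siBoth changed these genes by another amount than siMYBL2 was tested as the difference of the 2 effects. No gene was called by edgeR or DESeq2, 5 of 41 had an unadjusted p under 0.05 in each tool, and 0.159% of all genes tested were called in either direction. The difference was 0.03 ± 0.258 for ITGAX, -0.03 ± 0.283 for ITGA3 and 0.01 ± 0.186 for ITGB1 on the log2 scale. It was -0.70 ± 0.201 for ITGA2 and -1.34 ± 0.5 for ITGB3, with adjusted p of 0.315 and 0.531. Under the replicate block, 3 genes differed, ITGA2 (-0.69), ITGA1 (-0.96) and ITGB3 (-1.34), each lower in siBoth, with adjusted p of 4.80e-04, 0.00127 and 0.00913 (edgeR), beside 1.59% of all genes tested. The 2 experiments were run with separate controls, and ITGA2 stood at 351, 390 and 338 CPM in siControl_Both against 169 to 238 in siControl.

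Several of the genes varied more between replicates than with the knockdown, and the libraries of 1 replicate number moved together. COL4A1 was highest in replicate 3 of each group, with 162, 133, 296 and 119 CPM in siControl and 218, 188, 377 and 144 in siMYBL2. ITGB4 was lowest in replicate 3 and highest in replicate 4 of each group, at 274, 313, 186 and 424 CPM in siControl and 270, 286, 182 and 426 in siMYBL2. Under the replicate block, 8 genes rose and 2 fell in siMYBL2 (7.68% and 4.71% of all genes tested). The added genes were ITGA1 (log2 0.60, adjusted p = 1.93e-04), ITGA10 (0.70, adjusted p = 0.00343) and ITGAM, all by edgeR with the block. In siBoth with the block, ITGA1 went the other way, at -0.36 (adjusted p = 0.0288, edgeR), under the fold threshold and lower in 3 of 3 same-number pairs. There ITGA10 was at 0.24 (adjusted p = 0.2845) and ITGAM at 1.205 (adjusted p = 3.23e-05, edgeR). In siBoth, 5 rose and 2 fell under the block (6.62% and 5.08% of all genes tested), with ITGA11 and LAMB3 added (LAMB3 log2 0.64, adjusted p = 2.29e-05, edgeR). LAMB3, a laminin beta chain of epithelia, had 180, 147 and 56.0 CPM in siBoth against 103, 88.1 and 44.2 in siControl_Both.

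**Figure D4:**
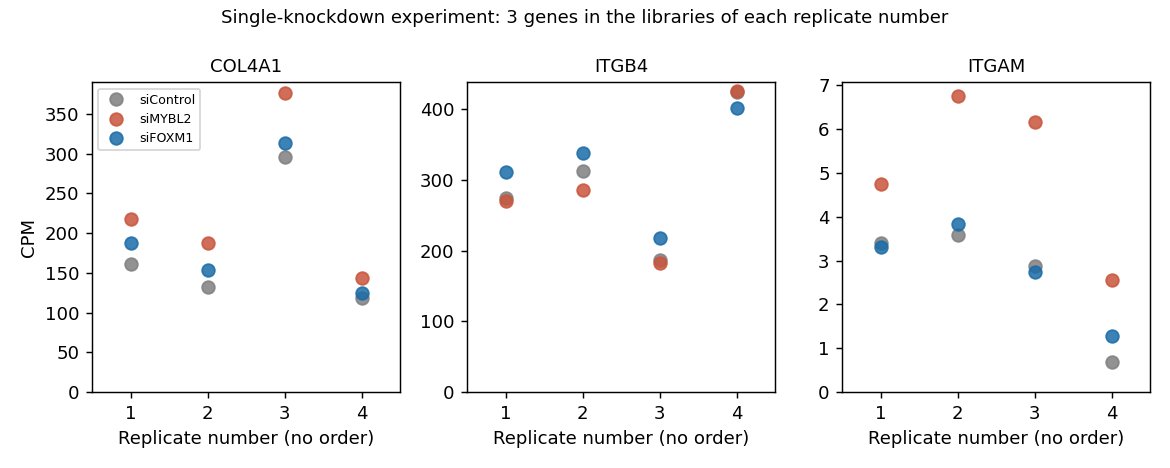
CPM (vertical, from 0) of COL4A1, ITGB4 and ITGAM against the replicate number of the single-knockdown experiment, with grey, red and blue points for siControl, siMYBL2 and siFOXM1. For COL4A1 replicate 3 is the highest library of each group, at 296 CPM in siControl and 377 CPM in siMYBL2.

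ITGB4, the beta chain of the hemidesmosome, was not called in any knockdown, with or without the replicate block. Its log2 fold changes were -0.04 ± 0.284 in siMYBL2, 0.10 ± 0.25 in siFOXM1 and -0.18 ± 0.232 in siBoth, with adjusted p of 0.939, 0.935 and 0.654. With the block they were -0.045, 0.122 and -0.124, with adjusted p of 0.356, 0.0161 and 0.497 (edgeR). The siFOXM1 difference thus passed the adjusted p with the block but lay under the fold threshold. In siBoth, its 192, 229 and 175 CPM stood against 321, 181 and 171 in siControl_Both, where replicate 1 was the highest. Among the 9 genes of hemidesmosomes and tetraspanins, 2 fell in siMYBL2 (3.52% of all genes tested), TSPAN14 (-0.77 ± 0.074, adjusted p = 3.37e-04) and TSPAN4 (-0.97 ± 0.103, adjusted p = 5.46e-04), which encode tetraspanin membrane proteins, and none was called in siBoth or siFOXM1 (edgeR).

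No laminin or collagen IV gene was called in a knockdown with the filter on low counts and without the block. When that filter was omitted, LAMB3 and LAMB4 were called in siBoth, LAMB4 on at most 27 counts a library. None of 11 tested laminin chains was called in siMYBL2, where LAMA3 was at -0.15 and LAMA4 at 0.25 on the log2 scale, and none of 6 collagen IV chains, between -0.06 and 0.38. In siBoth, the 10 laminins that passed the filter lay between -0.23 and 0.70 and the collagen IV chains between -0.21 and 0.40. None of these was called with the filter and without the block. COL4A1 and COL4A2, the chains of the common collagen IV trimer, were higher in 4 of 4 same-number pairs in siMYBL2 (ratios 1.21 to 1.42 for COL4A1) in 4 of 4 in siFOXM1 (1.06 to 1.17) and in 3 of 3 in siBoth (1.3 to 1.32), below the fold threshold. The COL4A2 to COL4A1 ratio per kb was between 1.15 and 1.5 in siMYBL2 and 1.21 and 1.61 in siControl.

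The 6 collagen IV genes lie as head-to-head pairs. The start sites of COL4A1 and COL4A2 are separated by 126 bases with 80.2% G or C, those of COL4A4 and COL4A3 by 418 bases and those of COL4A6 and COL4A5 by 379 bases (RefSeq start sites, GRCh38, hg38). Of the 44 genes, 32 had an entry in the promoter table of RefSeq. In the 250 bases before the start site, both strands were searched for the cell cycle gene homology region (CHR, TTTGAA or TTTAAA), which MYBL2 and FOXM1 complexes are known to use, for CCAAT, for the forkhead core TGTTTA and for the AP-1 element TGANTCA. The CHR letters were in 8 of 32 promoters (25%) beside 22.1% of 27305 promoters, the first entry of each gene symbol in the table. For the 32 genes the entry nearest the annotated gene start was searched instead, so the shares follow unlike rules where a gene has several entries. CCAAT was in 8 (25%) beside 33%, TGTTTA in 4 (12.5%) beside 11.1%, and TGANTCA in 1 (3.12%) beside 6.6%. The windows of ITGB1 and ITGA2 hold none of these letters. Besides ITGAM, the CHR letters were in ITGB5, ITGB6 and LAMA2, in 2 places each, and in LAMA3, LAMB1, LAMB2 and LAMB3. None of these other holders was called in a treatment comparison with the filter on low counts and without the block. The ITGAM window is shown because that gene rose in siBoth and FDI6 and its window holds the CHR letters in 2 places, and the COL4A1 to COL4A2 interval because 1 sequence separates both genes. Capitals mark the CHR letters in the first and CCAAT in the second, on the printed strand:
ITGAM promoter (hg38, chr16:31259725-31259974, plus strand): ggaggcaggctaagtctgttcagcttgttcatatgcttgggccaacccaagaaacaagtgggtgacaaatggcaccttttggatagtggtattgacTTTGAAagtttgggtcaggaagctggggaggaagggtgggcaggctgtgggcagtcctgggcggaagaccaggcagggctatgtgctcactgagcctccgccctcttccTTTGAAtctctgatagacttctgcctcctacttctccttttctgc
COL4A1 to COL4A2 interval (hg38, chr13:110307158-110307283, plus strand): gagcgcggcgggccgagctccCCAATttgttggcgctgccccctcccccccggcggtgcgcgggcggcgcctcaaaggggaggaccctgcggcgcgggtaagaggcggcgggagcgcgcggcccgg

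With the knockdown of FOXM1 alone no gene of the group was called, and no log2 fold change of a tested gene exceeded 0.45 upwards. ITGB3 had the largest difference, -1.06 ± 0.369, on 11, 6, 7 and 9 counts against 9, 12, 28 and 18 (adjusted p = 0.244), and the groups overlap. ITGB6, the beta chain of the epithelial receptor alpha V beta 6, was at -0.63 ± 0.428 (adjusted p = 0.627), and a neighbouring gene on its strand shares 16.7% of the exon sequence. Under the replicate block, these 2 genes were called lower (-1.06 and -0.62, adjusted p = 0.0302 and 8.02e-04, edgeR), beside 1.47% of all genes tested lower and 1.05% higher. ITGA6, the alpha chain of the laminin receptors alpha 6 beta 1 and alpha 6 beta 4, was below the fold threshold at -0.42 (adjusted p = 1.14e-10 with the block and 0.223 without it) and was lower in 4 of 4 same-number pairs, with ratios from 0.705 to 0.776. Its values were 174, 185, 123 and 153 CPM in siFOXM1 and 224, 239, 174 and 208 in siControl.

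Between the single knockdowns, 8 of 39 genes differed (10.2% of all genes tested in either direction, edgeR). ITGAX, ITGB3, ITGA7, ITGA1, ITGA11 and ITGA2 were higher in siMYBL2 than in siFOXM1, and ITGA3 and ITGB1 lower. The ITGB3 difference was 2.43 ± 0.247 (adjusted p = 2.64e-04) and that of ITGA1, a collagen receptor chain, 0.86 ± 0.257 (adjusted p = 0.0385). ITGA1 was called in 2 of 8 fits that left out 1 library, ITGA7 in 5 and ITGB1 in 7. Under the replicate block, 10 differed, beside 14.3% of all genes tested.

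The 3′ UTRs were read for 7-base words that an earlier pass over these data had found among genes lowered by each siRNA, so the words were chosen on these samples and are no independent evidence. CCTTACA was in the 3′ UTRs of 24.8% of the genes that fell in siMYBL2, 6.11% of those that rose and 8.64% of all tested, and GTGTTTA was in 64.5% of the genes that fell in siFOXM1 and 17.6% of all tested. CCTTACA was in 5 of the 44 genes (11.4%). These were ITGA3, which fell by 0.90 on the log2 scale in siMYBL2, ITGA11, which rose (0.96), and ITGA1 (0.58), ITGA4 (0.28) and COL4A4 (-0.06), which were not called. ACGCCCA, the other siMYBL2 word, was in 12% of genes that fell, 4.62% of all tested and, among the 44, in ITGAM (0.93). GTGTTTA was in 9 of the 44 genes (20.5%), with 3 sites in ITGA6 and 1 each in ITGB3 and ITGB6. None of the tested genes that hold it was called in siFOXM1 without the replicate block, under which ITGB3 and ITGB6 were called lower. ITGA6 was at -0.415, ITGB8 with 2 sites at 0.01, ITGA11 at 0.11 and ITGA1 at -0.28 on the log2 scale. ITGA8 and LAMA1 hold it too and were not tested. ITGB1, ITGAX and ITGB4 hold none of the 3 words. The part of these sites in the results was not tested. The sites of ITGA3 and ITGA11, 1 gene that fell and 1 that rose, and those of ITGA6, ITGB3 and ITGB6 are shown with 10 bases on each side and the word in capitals:
ITGA3 3′ UTR (hg38, chr17:50089451-50089477, plus strand): gcgctgtggaCCTTACAacgccgagtg
ITGA11 3′ UTR (hg38, chr15:68296784-68296810, minus strand): atagagacagCCTTACAagcaggatct
ITGA6 3′ UTR (hg38, chr2:172505842-172505868, plus strand): ggttataacaGTGTTTAaagtctcagt
ITGA6 3′ UTR (hg38, chr2:172505888-172505914, plus strand): tgtccctaatGTGTTTAgattgctaga
ITGA6 3′ UTR (hg38, chr2:172506020-172506046, plus strand): agatgttatgGTGTTTAgatttatggt
ITGB3 3′ UTR (hg38, chr17:47310372-47310398, plus strand): gggggtctgtGTGTTTAtgtgtgtgtg
ITGB6 3′ UTR (hg38, chr2:160099711-160099737, minus strand): tggttttgtcGTGTTTAttattgtatt

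Of the 7 alpha chains of the receptors for collagen and laminin, ITGA2, ITGA10, ITGA3 and ITGA6 rose with FDI-6, ITGA7 fell, and ITGA1 (log2 0.25) and ITGA11 (-0.38) were not called. ITGA2 rose from 37.1, 38.0 and 37.0 CPM in the control to 191, 165 and 203 CPM, the strongest change of the group, with a log2 fold change of 2.32 ± 0.086 (adjusted p = 2.68e-08, edgeR), a 4.99-fold rise. ITGA6 rose from 70.9, 66.9 and 74.4 CPM to 162, 149 and 134 (log2 1.07 ± 0.082, adjusted p = 2.99e-06, edgeR). ITGA3 rose from 597, 637 and 590 CPM to 874, 1001 and 1098 (log2 0.70 ± 0.078, adjusted p = 4.46e-05, edgeR). The lowest treated library lay above the highest control for all 3 genes. ITGAV, whose partners include beta 3, 5, 6 and 8, rose from 95.1, 97.4 and 98.96 CPM to 159, 150 and 147 (log2 0.65 ± 0.064, adjusted p = 2.05e-05, edgeR). Its exons hold 36.7% G or C against a median of 47.9% over the genes tested, and after correction for GC content and exon length its log2 fold change was 0.21, under the fold threshold.

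Among the lower-level integrins, ITGA10 rose with FDI-6 from 1.40, 1.30 and 1.55 CPM to 3.35, 2.37 and 2.495 (log2 0.95 ± 0.249, adjusted p = 0.0107, edgeR). ITGAM rose from 1.61, 1.83 and 1.66 CPM to 2.82, 3.47 and 2.83 (log2 0.83 ± 0.221, adjusted p = 0.0112, edgeR). The summed leukocyte markers were lower with FDI-6, between 4.79 and 7.04 CPM against 8.03 to 11.1. ITGA7 was the only gene of the group that fell, from 4.09, 3.12 and 3.59 CPM to 1.74, 1.85 and 1.55 (log2 -1.07 ± 0.217, adjusted p = 0.0026, edgeR), while it rose in siMYBL2. Whether these 2 effects differ was not tested.

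None of the 6 tested beta chains was called with FDI-6. ITGB4 had 300, 323 and 318 CPM against 218, 233 and 212, with no overlap, and a log2 fold change of 0.50 ± 0.063 (adjusted p = 1.06e-04, edgeR), a 1.42-fold difference under the fold threshold. Its exons hold 64% G or C, and after correction for GC content and exon length the difference was 0.78 (adjusted p = 1.38e-06) and passed the threshold. ITGB1 had 1979, 1863 and 1815 CPM against 1314, 1372 and 1407 (log2 0.47 ± 0.055, adjusted p = 6.67e-05, edgeR), also without overlap and under the fold threshold. The exons of ITGB1 hold 41.8% G or C, and after the same correction its difference was 0.17 (adjusted p = 0.00656, edgeR).

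**Figure D5:**
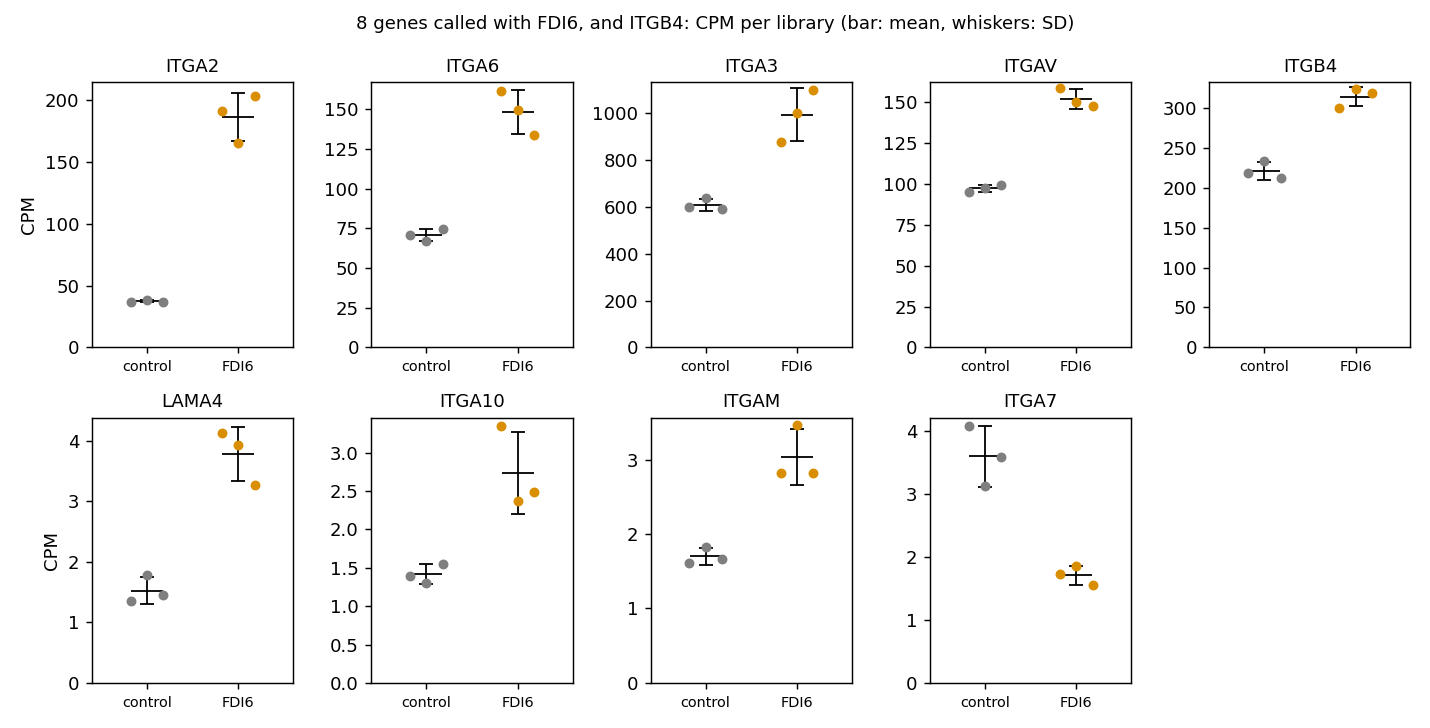
CPM (vertical, from 0) in the 3 control and 3 FDI6 libraries for 8 genes called with FDI-6 and for ITGB4, with points for libraries, a bar for the mean and whiskers for the SD. ITGA2 lies at 37.0 to 38.0 CPM in the control and 165 to 203 with FDI-6, and only ITGA7 is lower with FDI-6.

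Among the laminin chains, LAMA4, an alpha chain known from vessels and muscle, rose with FDI-6 from 25, 37 and 27 counts to 69, 68 and 59 (log2 1.30 ± 0.223, adjusted p = 9e-04, edgeR). LAMA3 and LAMB3, laminin chains of epithelia, had log2 fold changes of 0.46 ± 0.094 and 0.29 ± 0.116, with adjusted p of 0.00278 and 0.0689, both under the fold threshold. LAMA5 (-0.48 ± 0.113) and LAMB2 (-0.44 ± 0.074) were lower under the fold threshold, with adjusted p of 0.00554 and 7.35e-04. COL4A2 had 102, 142 and 153 CPM against 185, 184 and 177 (log2 -0.46 ± 0.118, adjusted p = 0.00961), also under the threshold, and -0.60 (adjusted p = 1.81e-04) after correction for GC content and exon length, which passed it. The COL4A2 to COL4A1 ratio per kb was between 1.61 and 2.05 with FDI-6 and 2.23 and 2.32 in the control, without overlap.

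FDI-6 was also set against the knockdown of FOXM1 as the difference of the 2 effects. It was called for 7 of 40 genes, beside 11.5% of all genes tested in either direction. The effect of FDI-6 was the higher for ITGA2 (2.54 ± 0.173, adjusted p = 1.32e-06), ITGA6 (1.48 ± 0.184, adjusted p = 1.03e-04), LAMA4 (1.67 ± 0.368, adjusted p = 0.00578), ITGA3 (0.72 ± 0.217, adjusted p = 0.0302) and ITGAV (0.65 ± 0.14, adjusted p = 0.00508) by edgeR. It was the lower for ITGA7 (-1.42 ± 0.357, adjusted p = 0.0121) and LAMB2 (-0.63 ± 0.172, adjusted p = 0.0186). The call for ITGA3 held in 6 of 14 fits that left out 1 library. After correction for GC content and exon length the differences for ITGAV (0.15, adjusted p = 0.574) and LAMB2 (-0.43, adjusted p = 0.122) were no longer called. One agent was transfected and the other added as a compound, and the control levels of the 2 experiments are unlike: ITGA2 was at 37.0 to 38.0 CPM in control_FDI6 and at 169 to 238 CPM in siControl.

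The other genes of adhesion and matrix were taken from lists chosen with earlier results of these data known. Of 43 tested genes of focal adhesions, the plaques that tie integrins to actin, 1 rose and 2 fell in siMYBL2, 2 rose and 1 fell in siBoth, 2 of 42 rose and 3 fell in FDI6 and none was called in siFOXM1. The counts of these lists stand beside 4.38% of all genes tested that rose and 3.52% that fell in siMYBL2, 2.8% and 3.64% in siBoth, 8% and 5.77% in FDI6, and 0.0755% and 0.591% in siFOXM1. No gene of any list below was called in siFOXM1 without the replicate block, and with it 1 other integrin ligand and 1 epithelial marker were called higher, and 1 fibroblast marker higher and 1 lower (edgeR). In siBoth the block called 3 focal adhesion genes higher and 2 lower. FLNC, an actin crosslinker, rose in siMYBL2 (1.23 ± 0.293, adjusted p = 0.0198), and TNS4 and KANK2, adaptors of focal adhesions, fell (-0.91 and -0.62, adjusted p = 0.00453 and 0.0182, edgeR). FERMT1, which encodes the integrin activator kindlin-1, fell in siBoth (-0.75 ± 0.122, adjusted p = 0.0083) and rose with FDI-6 (0.59 ± 0.07, adjusted p = 6.92e-05), where PXN, encoding paxillin, rose too (0.60 ± 0.078, adjusted p = 1.30e-04).

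Of the other basement-membrane genes, 3 of 19 rose in siMYBL2 and none fell, with a median log2 fold change of 0.457 for the list. These were COL6A1 (1.01 ± 0.192, adjusted p = 0.00799), COL6A2 (1.13 ± 0.209, adjusted p = 0.00691) and NID1 (0.65 ± 0.162, adjusted p = 0.0239), which encode collagen VI chains and the laminin and collagen IV linker nidogen-1. In siBoth, 2 of 19 rose, COL7A1, the anchoring fibril collagen, among them (0.96 ± 0.133, adjusted p = 0.0043), and in FDI6 4 of 18 rose and 5 fell. NTN4, a laminin-related netrin, rose with FDI-6 (0.97 ± 0.066, adjusted p = 1.17e-06), and MATN2, COL18A1 and AGRN fell (-0.91, -0.82 and -0.66, adjusted p = 1.30e-04, 0.00549 and 0.00113, edgeR). Under the replicate block, 6 genes of this list rose in siMYBL2 and 6 in siBoth.

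Of the other integrin ligands, 2 of 27 rose and 8 fell with FDI-6. The 3 fibrinogen chains had the strongest falls, FGB (-2.67 ± 0.165, adjusted p = 5.8e-07), FGA (-2.48 ± 0.124, adjusted p = 1.24e-07) and FGG (-1.90 ± 0.152, adjusted p = 4.26e-06), and CCN2, a matricellular protein, rose (0.91 ± 0.103, adjusted p = 5.01e-05). In siMYBL2, 1 of 30 rose (JAM3, 1.07 ± 0.156, adjusted p = 0.00238) and 1 fell (THBS1, thrombospondin-1, -0.64 ± 0.096, adjusted p = 0.0027). In siBoth, 1 of 29 rose, ICAM1, the ligand of leukocyte integrins (1.16 ± 0.227, adjusted p = 0.0163, edgeR). With the block, 5 of these ligands rose and 1 fell in siMYBL2, and 4 rose and 3 fell in siBoth.

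Among the other laminin and collagen receptors, 2 of 10 rose and 1 fell with FDI-6. CD44, a hyaluronan receptor, rose (1.09 ± 0.059, adjusted p = 2.46e-07), as did SDC4, a heparan sulfate coreceptor (0.58 ± 0.089, adjusted p = 4.39e-04), and BCAM, which binds laminin alpha 5, fell (-0.87 ± 0.091, adjusted p = 3.18e-05, edgeR). SDC4 was the only gene of the 11 called in siMYBL2 (0.62 ± 0.185, adjusted p = 0.0475) and in siBoth (0.61 ± 0.161, adjusted p = 0.0435). Of the genes that process collagen IV, 2 of 26 rose and 1 fell in siMYBL2 and 2 of 27 fell in siBoth. MIA3, whose product exports collagen from the endoplasmic reticulum, fell in siMYBL2 (-1.16 ± 0.074, adjusted p = 6.44e-05) and siBoth (-1.18 ± 0.124, adjusted p = 0.00123), and MMP2, a gelatinase, rose in siMYBL2 (0.86 ± 0.251, adjusted p = 0.0431, edgeR). With the block, 4 of these processing genes rose and 3 fell in siBoth, and 3 rose and 1 fell in siMYBL2. With FDI-6, 1 of 24 rose, COLGALT2 (1.5 ± 0.274, adjusted p = 0.00135, edgeR). COL17A1 rose (1.22 ± 0.275, adjusted p = 0.00483) and the tetraspanin CD151 fell among the 9 hemidesmosome and tetraspanin genes with FDI-6 (CD151 -0.63 ± 0.132, adjusted p = 0.0031, edgeR).

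Levels of the marker lists moved beside the FDI-6 results. Of 10 epithelial and A549 markers, 5 fell with FDI-6, KRT8 (-0.81 ± 0.078, adjusted p = 1.59e-05) and CDH1 (-1.49 ± 0.124, adjusted p = 5.54e-06, edgeR) among them, and their sum was between 14200 and 14800 CPM against 20200 to 21100. The summed fibroblast markers were between 8.8 and 13.2 CPM against 21.1 to 23.1 and the endothelial markers between 31.5 and 53.6 CPM against 66.4 to 74.4. In siMYBL2 and siBoth the epithelial sum was also lower, 10700 to 14100 CPM against 16600 to 19800 and 7920 to 10300 against 10900 to 15500, with ALDH1A1 lower by 1.55 and 1.58 on the log2 scale (adjusted p = 4.17e-04 and 2.94e-04, edgeR). The other called epithelial marker, CLDN4, rose in both (0.80 ± 0.137 and 0.99 ± 0.272, adjusted p = 0.00478 and 0.0486, edgeR). The median log2 fold change of the 10 markers was -0.079 in siMYBL2 and -0.024 in siBoth. THY1, a fibroblast marker, rose in siMYBL2 (1.17 ± 0.194, adjusted p = 0.00408, edgeR). In those knockdowns the fibroblast sums, 33.8 to 51.7 CPM against 26.5 to 39.4 and 40.1 to 70.3 against 35.1 to 48.2, and the endothelial sums, 40.4 to 60.1 against 41.0 to 53.1 and 42.0 to 56.8 against 37.4 to 42.4, overlapped the controls. The part of these markers in the integrin and laminin results was not tested.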

How the data were processed

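RNA from A549 cells was measured in 24 libraries. The deposited files hold raw read counts per gene, which the authors made, per the labels, with Trim Galore, STAR and HTSeq on hg38, and per the study's methods with GENCODE 29. Counts were used as deposited and rows that name no gene were left out. Strand handling in counting is not given in the sources used here. Of 58721 identifiers, 58207 matched GENCODE 44, from which symbols, exon lengths and overlaps were taken.

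Groups and replicate numbers came from the labels, and the study states biological replicates. Each comparison was fitted on its own libraries with edgeR 4.0.16 (R 4.3.3): filterByExpr, TMM scaling and quasi-likelihood tests. P-values were adjusted by Benjamini-Hochberg over every gene that passed the filter. Intervals ± are SE of log2 fold changes or SD of levels. Alternatives were RLE and upper-quartile scaling, DESeq2 1.42.0, omitting the filter, a floor of 10 counts per library, glmTreat at 1.5-fold, the replicate number as a block, each library left out, and, added after seeing the data, a correction for GC content and exon length. DESeq2 is the test of the study's methods. Knockdown libraries of 1 replicate number moved together, with correlations of deviations from group means across genes between 0.573 and 0.875 for siMYBL2, 0.539 and 0.906 for siFOXM1 and 0.553 and 0.688 for siBoth, but not with FDI-6 (-0.288 to 0.161). The main tests of all comparisons, the knockdowns included, leave the replicate number out, so their p-values do not use the pairing. The block is an alternative setting, and genes called under it are named for the knockdowns only. No libraries of a group agreed within sampling noise (chi-square per gene of at least 3.57). That value ran from 3.57 to 3.68 in control_FDI6, from 3.89 to 18.9 in FDI6 and from 11.2 to 62.8 in the knockdown experiments. The spread between libraries is thus unlike, and p-values and counts of called genes are not comparable between FDI6 and the knockdowns. The fit was tested on simulated counts.

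The genes and lists were chosen with earlier results of these data known. Per-library values are given for ITGAX, ITGB4 and the genes called in a treatment comparison. One gene is counted among the 44 and in the counts of called genes but is not reported here. From each list up to 3 rising and 3 falling genes are named, where the mean count per library reached 100, apart from markers and from COL17A1 and COLGALT2, which were named after their values were seen.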

Additional observations from a re-analysis of the deposited data

Results flagged for a closer look

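In groups of 4, 3 of 42 sets of values for the called genes, ITGAX and ITGB4 had 1 library far from the others by Dixon's criterion, and chance flags about 1 in 20. All 3 were in siMYBL2. ITGA2 was at 223.5 CPM in replicate 4 against 328.6 to 339 in the others, ITGA7 at 11.8 CPM in replicate 4 against 6.96 to 7.27, and ITGA6 at 200.6 CPM in replicate 3 against 245.8 to 254.2.

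The effects of the 2 single knockdowns, which share their controls, differed in the direct test (edgeR, log2, siMYBL2 minus siFOXM1) for ITGAX (2.61), ITGB3 (2.43), ITGA7 (0.91), ITGA1 (0.86), ITGA11 (0.85), ITGA2 (0.84), ITGA3 (-0.89) and ITGB1 (-0.71). The effect of FDI-6 differed from that of siFOXM1 for ITGA2 (2.54), LAMA4 (1.67), ITGA6 (1.48), ITGA3 (0.72), ITGAV (0.65), LAMB2 (-0.63) and ITGA7 (-1.42).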

How the results depend on the processing

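RLE scaling, upper-quartile scaling, DESeq2 and the filter of at least 10 counts kept each count of called genes within 1.5 times its reported value in the comparisons where they were run. Tested against a 1.5-fold change with glmTreat, 1 gene was called in siMYBL2 and 1 in siBoth, ITGAX in each, 4 in FDI6 and 2 between siMYBL2 and siFOXM1. Without a filter on low counts, siBoth called 8, with ITGA11, LAMB3 and LAMB4 added. With the replicate block, siFOXM1 called 2 (also 2 with the GC content and exon length correction added), the difference between siBoth and siMYBL2 called 3 (2 with the correction), and the difference between FDI6 and siFOXM1 called 12, where 2862 of 17026 genes tested were called. The block ended the call of no integrin, laminin or collagen IV gene. For FDI6 itself, where the numbers do not pair the libraries (correlations from -0.288 to 0.161), the block called 9. Upper-quartile scaling moved the share of higher calls among all called genes from 43.5% to 59.4% in siBoth, from 58.1% to 49.8% in FDI6 and from 63.7% to 51.4% for the difference between FDI6 and siFOXM1, with 3 higher and 2 lower, 8 higher and 1 lower, and 5 higher and 3 lower of the integrin, laminin and collagen IV genes.

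Leaving out 1 library gave 5 to 7 called genes in siMYBL2, 0 in siFOXM1, 4 in siBoth, 9 to 10 in FDI6, 7 to 10 between siMYBL2 and siFOXM1, 0 between siBoth and siMYBL2, and 5 to 11 between FDI6 and siFOXM1, where 11 came without siControl replicate 4. ITGB4, never called in a knockdown, ranged over these fits from -0.282 to 0.161 in siMYBL2, -0.072 to 0.314 in siFOXM1 and -0.34 to 0.171 in siBoth on the log2 scale. It turned sign in siMYBL2 with upper-quartile scaling (0.012) and without siMYBL2 replicate 3 (0.128) or siControl replicate 4 (0.161), in siFOXM1 without siFOXM1 replicate 4 (-0.036) or siControl replicate 3 (-0.072), and in siBoth without siControl_Both replicate 1 (0.171). The causes were not tested. The GC content correction ended the ITGAV call in FDI6 and added ITGB4 and COL4A2. ITGA8, ITGA9, ITGB7 and LAMA1 had too few counts to be tested in any treatment comparison.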
